A study of Homo sapiens with 6 samples.

Results

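Intragenic β-catenin peaks away from gene starts are described here for SA121, a human embryonic stem cell line. They were taken from peak lists of chromatin immunoprecipitation followed by sequencing (ChIP-seq). A peak was a member when the authors placed its centre within a gene and when that centre lay more than 1000 bp from the transcription start site (TSS) of the gene. By this rule 788 of 3126 peaks were members: 38 of 260 in cells kept in RPMI medium, 236 of 1053 in cells given the inhibitor CHIR99021 (CHIR), and 514 of 1813 in cells given CHIR99021 and SB431542 (CHIR+SB). All conditions shared the cell line, the RPMI-1640 medium and the exposure of 6 h, and each had 1 β-catenin library and 1 goat IgG library. DNA from 3 parallel ChIPs was pooled for each library, so no spread between replicates exists and every interval below covers counting error only. The lists hold no RNA levels, so the labelled cell type was not checked against its markers. The rule used position alone and no read count.

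β-catenin joins cadherins at cell contacts and, when Wnt signalling is active, enters the nucleus, where it binds DNA through TCF/LEF transcription factors. CHIR99021 blocks GSK3, the kinase that marks β-catenin for degradation, and SB431542 blocks receptor kinases that respond to activin, Nodal and TGFβ. Enhancers that respond to Wnt often lie inside introns, of the gene they act on or of a neighbour, so the gene that hosts a peak need not be the gene it acts on.

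Within each peak the authors counted β-catenin reads and reads of the matching IgG library. Normalised signal is the β-catenin count times 1 factor per library. The β-catenin factor of RPMI was 1.67 times that of CHIR and 1.14 times that of CHIR+SB, and the IgG factor 0.976 and 1.75 times. If the factors scale for depth, which the sources used here do not state, these are depths relative to RPMI. The smallest count in a peak was 15 reads for RPMI, 20 for CHIR and 12 for CHIR+SB, so the lists do not reach down to the same signal. Intragenic peaks held 670, 8039 and 10278 β-catenin reads in RPMI, CHIR and CHIR+SB, over 8.87, 85.3 and 150.4 kb of sequence. IgG reads in the same peaks numbered 122, 866 and 3262.

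The first question is how much of each list lay inside genes. Intragenic peaks made up 14.6% of the RPMI list (exact 95% Clopper-Pearson interval 10.6 to 19.5%), 22.4% of the CHIR list (19.9 to 25.1%) and 28.4% of the CHIR+SB list (26.3 to 30.5%). Promoter peaks, centred within 1000 bp of the TSS, made up 55.0%, 26.6% and 14.5%. Among the 260 highest peaks of every list, 37 CHIR peaks and 50 CHIR+SB peaks were intragenic, and the shares were 14.2% and 19.2% beside the 14.6% of RPMI. The larger share in CHIR than in RPMI was therefore not present among equal numbers of the highest peaks. With a common lower limit on signal, 9.61, which is the minimum of the RPMI list, 38, 162 and 221 intragenic peaks were left.

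Intragenic peaks held fewer reads than promoter peaks, as did the other peaks away from promoters. The median was 16 reads in RPMI, with 30 in the highest peak, 30 in CHIR with 177 in the highest, and 17 in CHIR+SB with 84 in the highest. On the scale of normalised signal the medians were 10.3, 11.5 and 9.56, against 15.4, 14.2 and 12.9 at promoters. Peaks up to 50 kb upstream of a TSS (upstream), farther upstream (far upstream) or beyond a gene's end (downstream) had medians of 11.5, 11.5 and 11.1 in CHIR and of 9.56, 9.0 and 9.56 in CHIR+SB, close to those of intragenic peaks. Of the RPMI intragenic peaks, 71.1% lay within 2 reads of the smallest count in the list (54.1 to 84.6%), against 18.2% of RPMI promoter peaks (12.2 to 25.5%). The same share was 16.9% against 8.93% in CHIR and 25.9% against 9.16% in CHIR+SB. The smallest count itself was held by 12 of 38 intragenic peaks in RPMI, 17 of 236 in CHIR and 1 of 514 in CHIR+SB. The share within 2 reads is therefore not comparable between RPMI and CHIR+SB. Within 5 reads of the smallest count lay 81.6% of the intragenic peaks of RPMI, 31.4% of those of CHIR and 57.0% of those of CHIR+SB. The share within 5 reads has the same limit. Normalised β-catenin signal was a median of 4.65, 4.90 and 4.29 times IgG at intragenic peaks, and no IgG read was counted at 3, 4 and 2 of them. The median width was 198.5 bp in RPMI, 360.5 bp in CHIR and 243.5 bp in CHIR+SB.

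Most intragenic peaks lay deep inside long genes. The median distance to the TSS was 72.7 kb in RPMI, 39.8 kb in CHIR and 50.3 kb in CHIR+SB, in host genes with a median length of 195, 141 and 159 kb. Peaks between 1 and 5 kb from the TSS were 2 of 38 in RPMI (5.26%, 0.644 to 17.7%), 48 of 236 in CHIR (20.3%, 15.4 to 26.0%) and 70 of 514 in CHIR+SB (13.6%, 10.8 to 16.9%). Peaks more than 100 kb inside were 42.1%, 30.5% and 33.1%. Of the CHIR peaks 36.4% lay in the first 25% of the host gene's length (30.3 to 42.9%) and of the CHIR+SB peaks 34.0% (30.0 to 38.3%), against 23.7% in RPMI (11.4 to 40.2%). The intervals of RPMI are wide and include the values of the other lists in most of these bins. Under the common minimum signal of 9.61 the median distance in CHIR+SB was 37.3 kb.

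**Figure D1:**
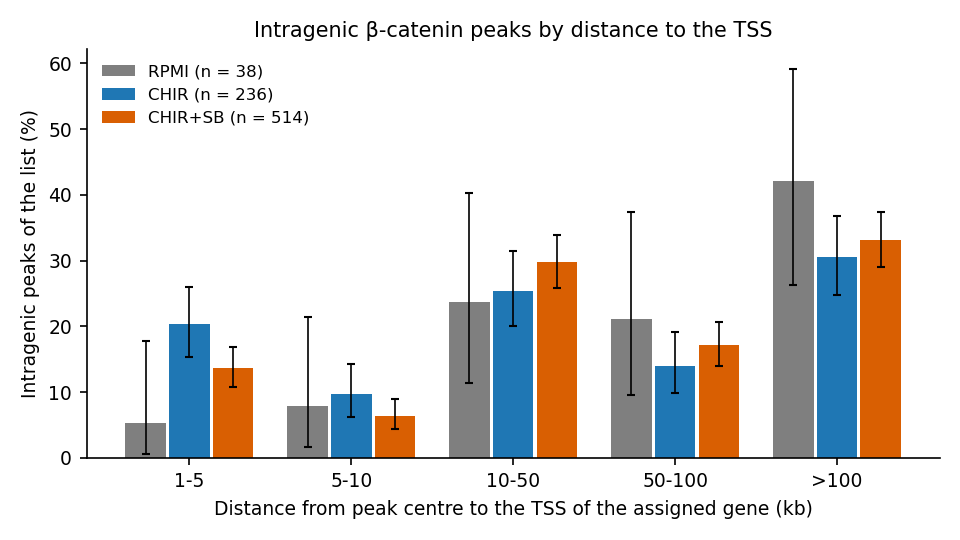
Share of the intragenic peaks of each list (y axis, percent) by distance from the peak centre to the TSS of the assigned gene (x axis, kb), with exact 95% binomial intervals as error bars. The bin of 1 to 5 kb holds 5.26% of RPMI, 20.3% of CHIR and 13.6% of CHIR+SB peaks, and the intervals overlap in each bin.

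At the limit of 1000 bp, the nearest intragenic peaks of CHIR lay in ASXL1, 1092 bp from its TSS with 30 reads, and in MCC, at 1114 bp with 46 reads. Just short of the limit in CHIR were peaks in FGF8, at 944 bp with 45 reads, and in LOC283731, at 927 bp with 22 reads. In CHIR+SB the nearest members lay in NEFH (1066.5 bp, 16 reads) and LOC100131496 (1112.5 bp, 23 reads), and AMOTL2 (987 bp, 18 reads) and GXYLT2 (957.5 bp, 14 reads) fell just short. In RPMI the nearest members lay in MCU (2730 bp, 15 reads) and NREP-AS1 (2776.5 bp, 15 reads), and CCDC92 (794.5 bp, 23 reads) and RAB25 (520 bp, 18 reads) fell short. Distances are to the TSS the lists name. Of the 440 host genes found in the RefSeq promoter table, 173 have more than 1 start there (39.3%), and the distance to the other starts was not measured here.

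CDX2 carried the highest intragenic peak in both inhibitor lists. CDX2 is a homeobox transcription factor of the trophoblast and the posterior embryo. Its peak at chr13:28539820-28541028 (hg19) lay 3.08 kb inside the 7.30 kb gene and held 177 reads in CHIR with 12 in IgG. In CHIR+SB the peak at chr13:28539994-28540922 held 84 reads with 32 in IgG, and no RPMI peak overlapped either. Signal was 8.03 times IgG in CHIR (4.48 to 15.8) and 3.75 times in CHIR+SB (2.47 to 5.83).

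Besides CDX2, the sites in TSPAN18, VAT1L and TRABD2A were among the 10 highest of both inhibitor lists, and none of them had an RPMI peak. A site in CSMD1, among the 10 highest of CHIR with 66 reads, did have one, with 21 reads. In CHIR+SB its 48 reads tied with ARHGEF38, the last of the 10 highest there. TSPAN18, which encodes a tetraspanin membrane protein, held 104 reads in CHIR at chr11:44845567-44846337 and 67 in CHIR+SB, 60.0 kb from its TSS. VAT1L held 80 and 67 reads at chr16:78000993-78001821 (the CHIR boundaries), 178.9 kb inside the gene. TRABD2A, a membrane protease that inactivates Wnt ligands, held 77 and 53 reads at chr2:85082739-85083445. At these 3 sites the signal ratio of CHIR+SB over CHIR was 0.944 (0.684 to 1.30), 1.23 (0.873 to 1.72) and 1.01 (0.697 to 1.45), so each interval included 1. GATA4, a transcription factor of endoderm and heart, held 69 reads in CHIR and 47 in CHIR+SB at a site 5.84 kb from its TSS (chr8:11567165-11567953), with a ratio of 0.998 (0.674 to 1.47).

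Of the other CHIR peaks among its 10 highest, KAZN, which encodes a scaffold protein of epithelial junctions, held 77 reads, and ZFP64, a zinc finger factor, held 76. HS3ST4, an enzyme that modifies heparan sulphate, held 72 reads with 2 in IgG, and ZNF423, a zinc finger transcription factor, held 64 with 12 in IgG. All 4 overlapped a CHIR+SB peak and none an RPMI peak. In CHIR+SB the 10 highest also included FGFR1, a receptor for fibroblast growth factors, and MCC, a gene named for its mutation in colorectal cancers, each with 60 reads. PAX7, a transcription factor of neural crest and muscle precursors, held 59 reads there, ZFHX3, a homeobox transcription factor, 57, and ARHGEF38 48. Each of these overlapped a CHIR peak.

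RPMI intragenic peaks held few reads. SLC6A11, a GABA transporter, had the highest, with 30 reads and 3 in IgG at chr3:10915093-10915593. It met a CHIR peak of 41 reads and no CHIR+SB peak, as did peaks in CSAD (17 reads in RPMI, 37 in CHIR), LINC02026 (15 and 39) and PPM1H (16 and 38). PRIM2, a subunit of DNA primase, followed MIEF1 with 24 reads and 6 in IgG and met a peak in neither inhibitor list. Neither did the peaks with 18 reads in GNAQ, a G protein subunit, and HYDIN, a protein of motile cilia. PRIM2 and HYDIN are known to have near-identical copies elsewhere in the genome, and reads that fit several copies could have been placed in either. How such reads were handled is not given in the sources used here.

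Of the 38 RPMI intragenic peaks, 13 overlapped a CHIR peak by at least 1 bp (34.2%, 19.6 to 51.4%), against 69.6% of all RPMI peaks. A CHIR+SB peak was met by 9 of the 38 (23.7%, 11.4 to 40.2%), against 61.5% of all RPMI peaks. Promoter peaks of RPMI met a CHIR peak in 93.0% (87.5 to 96.6%) and a CHIR+SB peak in 82.5% (75.3 to 88.4%), and these intervals lie wholly above those of intragenic peaks. The other classes of RPMI peaks lay nearer to the intragenic ones. A CHIR peak was met by 47.8% of upstream (26.8 to 69.4%), 22.2% of far upstream (6.41 to 47.6%) and 52.6% of downstream peaks (35.8 to 69.0%), and these intervals overlap that of intragenic peaks and lie below that of promoter peaks. Between 10 and 15 units of signal, 43.5% of intragenic (10 of 23, 23.2 to 65.5%), 90.4% of promoter (47 of 52, 79.0 to 96.8%), 33.3% of upstream (2 of 6) and 61.1% of downstream RPMI peaks (11 of 18) met a CHIR peak. With the 260 highest peaks of each list, the intragenic share in CHIR was 10.5%.

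Read the other way, 13 of 236 CHIR intragenic peaks met an RPMI peak (5.51%, 2.97 to 9.24%), against 17% of all CHIR peaks. Of the CHIR+SB intragenic peaks 9 of 514 did (1.75%, 0.804 to 3.30%), against 8.77% of all CHIR+SB peaks. Upstream, far upstream and downstream peaks did so in 5.43%, 3.96% and 7.54% in CHIR and in 3.91%, 1.99% and 3.17% in CHIR+SB. None of the 48 CHIR and 70 CHIR+SB members within 5 kb of the TSS met an RPMI peak, where the upper limits of the exact intervals are 7.40% and 5.13%. Every RPMI partner of the 13 and 9 peaks was itself intragenic, and the RPMI list held 38 intragenic peaks. That number limited both shares, so their distance from the shares of all peaks does not show less sharing at intragenic sites.

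CHIR and CHIR+SB shared many more sites. Of the 236 CHIR intragenic peaks, 145 overlapped a CHIR+SB peak (61.4%, 54.9 to 67.7%), against 63.3% of all CHIR peaks and 65.0% of CHIR promoter peaks (59.1 to 70.6%). Of the 514 CHIR+SB intragenic peaks, 143 overlapped a CHIR peak (27.8%, 24.0 to 31.9%), against 36.6% of all CHIR+SB peaks and 68.7% of its promoter peaks (62.7 to 74.3%). The share was 39.5% at upstream peaks (33.7 to 45.5%), 26.3% at far upstream peaks (21.0 to 32.2%) and 32.3% at downstream peaks (28.2 to 36.5%). The partner was intragenic in all of these overlaps except 1. That exception was FGF8, a growth factor of the primitive streak, whose CHIR+SB peak lay 1.19 kb from the TSS with 29 reads and met the CHIR peak at 944 bp. CHIR held 236 intragenic peaks for 514 in CHIR+SB, which limited the share of 27.8%. At promoters CHIR held 280 peaks for 262 in CHIR+SB, with no such limit. The shares of CHIR+SB peaks therefore cannot be compared between these classes apart from class size.

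The overlap followed the signal. In 4 equal groups of the CHIR intragenic peaks from lowest to highest signal, 32.2%, 59.3%, 66.1% and 88.1% met a CHIR+SB peak. In 4 such groups of the CHIR+SB intragenic peaks, 4.65%, 9.38%, 23.4% and 73.6% met a CHIR peak. At a signal of 20 or more, 19 of 19 CHIR peaks and 27 of 31 CHIR+SB peaks had a partner. Below a signal of 10 the CHIR+SB list held 293 intragenic peaks, of which 23 met a CHIR peak (7.85%, 5.04 to 11.5%), as did 38.6% of promoter (27.2 to 51.0%), 14.2% of upstream and 11.6% of downstream peaks. With the common minimum signal of 9.61 in both lists, 103 of 221 CHIR+SB intragenic peaks met a CHIR peak (46.6%, 39.9 to 53.4%) and 102 of 162 CHIR intragenic peaks met a CHIR+SB peak (63.0%, 55.0 to 70.4%). With the 260 highest peaks of each list the shares were 52% and 70.3%.

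**Figure D2:**
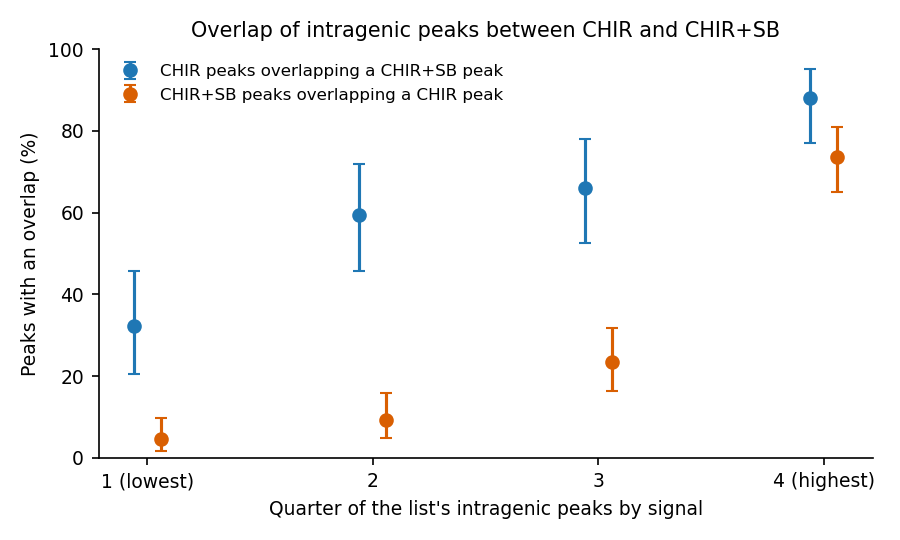
Share of intragenic peaks that overlap a peak of the other inhibitor list by at least 1 bp (y axis, percent), in 4 equal groups of the list's own intragenic peaks in order of signal (x axis), with exact 95% binomial intervals. Both shares are higher in the highest group, at 88.1% for CHIR and 73.6% for CHIR+SB, than in the lowest, at 32.2% and 4.65%.

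Merged by overlap, the members made 630 sites. Of these, 372 held members of CHIR+SB alone, 133 of CHIR and CHIR+SB, 87 of CHIR alone and 25 of RPMI alone. Another 9 held members of all lists and 4 of RPMI and CHIR. The 372 include the FGF8 site, which met a CHIR promoter peak. CHIR+SB peaks that met neither other list had a median of 15 reads and a width of 199 bp. The CHIR+SB peaks that met a CHIR peak and no RPMI peak had 25 reads and 453.5 bp. Of the 371 CHIR+SB peaks that met no other list, 101 lay at or above the common minimum signal of 9.61.

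For the 9 sites present in all lists, reads are given in the order RPMI, CHIR, CHIR+SB. CSMD1, which encodes a large membrane protein that regulates complement, held 21, 66 and 48 reads at chr8:3102779-3103115 (the RPMI boundaries), 1749 kb from its TSS. VPS37B, a subunit of the ESCRT-I sorting complex, held 23, 63 and 53. PLAGL1, an imprinted zinc finger transcription factor, held 16, 53 and 44. These 3 sites had the lowest signal in RPMI and the highest in CHIR+SB. MIEF1, a regulator of mitochondrial fission, held 28, 60 and 31 reads, and CENPT, a kinetochore protein, 22, 41 and 26, both with their highest signal in CHIR. MIR9-2HG, the host transcript of a miR-9 precursor, held 23, 34 and 33 reads, and IL1RAP, a subunit of the interleukin-1 receptor, 20, 33 and 28. BCL9, a coactivator that binds β-catenin, held 18, 24 and 32 reads at chr1:147059248-147059512, and PGM5, a protein related to phosphoglucomutases, 16, 23 and 16.

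On the scale of normalised signal, CHIR exceeded RPMI at 5 of the 9 sites and CHIR+SB exceeded RPMI at 7. For the 13 intragenic peaks that pair one-to-one between RPMI and CHIR, the median ratio of CHIR over RPMI signal was 1.28, and for 174 pairs of all classes it was 1.23. The exact interval of the ratio lay above 1 at 3 of the 13, against 16.1% of all pairs, and below 1 at 0, against 0.575%. These were PLAGL1 at 1.98 (1.12 to 3.72), CSMD1 at 1.88 (1.14 to 3.24) and VPS37B at 1.64 (1.00 to 2.77). The same genes were the 3 of 9 pairs whose interval lay above 1 for CHIR+SB over RPMI, against 8.55% of all pairs (with 0 below 1, against 2.63%), at 2.41 (1.34 to 4.58), 2.01 (1.18 to 3.53) and 2.02 (1.22 to 3.46). Both comparisons rest on the same RPMI library. The peaks differed in width as well. The PLAGL1 peak measured 148, 476 and 638 bp, that of CSMD1 336, 661 and 678 bp and that of VPS37B 410, 668 and 647 bp. Per bp of peak width, 1 of the 13 intervals excluded 1 for CHIR over RPMI, that of CSAD at 0.501 (0.275 to 0.948), against 10.3% of all pairs. For CHIR+SB over RPMI 0 of the 9 did, against 10.5% of all pairs. With all pairs centred on a ratio of 1, 0 of the 13 did for CHIR over RPMI.

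**Figure D3:**
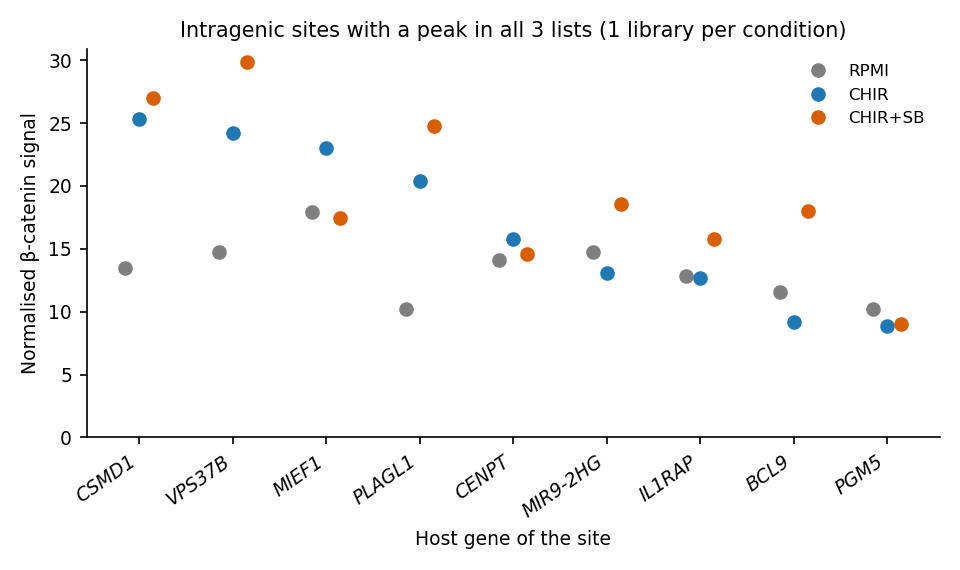
Normalised β-catenin signal (y axis) at the 9 intragenic sites called in all lists, named by host gene (x axis), with 1 point per condition and library. At CSMD1, VPS37B and PLAGL1 both inhibitor points lie above RPMI, and at PGM5 both lie below it.

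Between the inhibitor conditions, 139 intragenic peaks paired one-to-one, and the median ratio of CHIR+SB over CHIR signal was 1.04, beside 0.874 at 172 promoter pairs, 1.07 at 331 other pairs and 1.00 at all 642. Peak width differed between these classes in the same way, with median width ratios of 1.09 at intragenic, 0.909 at promoter and 1.06 at other pairs. Per bp of width the median signal ratios were close together, at 1.01, 0.993 and 1.02. The interval excluded 1 at 15 intragenic pairs, against 10.9% of all pairs. It lay above 1 at 11 (6.7% of all pairs) and below 1 at 4 (4.21% of all pairs). The intragenic share of 10.8% is near that of all pairs.

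Among the 11 higher in CHIR+SB, FGFR1 held 41 reads in CHIR and 60 in CHIR+SB, a signal ratio of 2.14 (1.42 to 3.27). FHIT, a tumour suppressor at a fragile site, held 26 and 38 reads, a ratio of 2.14 (1.27 to 3.67), and RBMS3, an RNA-binding protein, 27 and 37, a ratio of 2.01 (1.19 to 3.43). PAX7 held 44 and 59 reads, a ratio of 1.96 (1.31 to 2.97). BCL9 followed at 1.95, the antisense transcript OTX2-AS1 at 1.94, the ephrin ligand EFNA5 at 1.93 and MCC at 1.91. PCDHAC2, a protocadherin, stood at 1.84, URM1, a ubiquitin-like modifier, at 1.80 and POLN, a DNA polymerase, at 1.61. Unscaled IgG reads rose too, from 4 to 20 at FGFR1, 4 to 14 at EFNA5 and 5 to 17 at URM1. In these genes signal over IgG was lower in CHIR+SB, at 4.29 against 5.58, 3.37 against 3.40 and 3.19 against 3.37. At the other pairs named here it was higher in CHIR+SB, as at PAX7 (6.02 against 2.99) and POLN (9.18 against 3.72).

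The 4 lower in CHIR+SB were CDX2, KAZN, TEAD1 and AUTS2. CDX2 had a ratio of 0.695 (0.530 to 0.906) from the 177 and 84 reads given above, and KAZN one of 0.647 (0.419 to 0.980) from 77 and 34 reads. TEAD1, a transcription factor that binds DNA for the Hippo pathway, held 55 and 19 reads, a ratio of 0.506 (0.284 to 0.866). AUTS2, a regulator of neural development, held 44 and 15 reads at its innermost site, a ratio of 0.499 (0.258 to 0.915).

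Signal moved with peak width at these pairs. All 11 higher pairs were wider in CHIR+SB and all 4 lower pairs narrower, as were all 43 higher and all 27 lower pairs of any class. Across the 139 pairs, which share both libraries, log2 signal ratio and log2 width ratio had a Pearson r of 0.824, and across all 642 pairs one of 0.839. The FGFR1 peak measured 482 bp in CHIR and 1251 bp in CHIR+SB, that of MCC 366 and 900 bp, that of CDX2 1208 and 928 bp and that of TEAD1 589 and 237 bp. Per bp of width, 5 of the 139 intervals excluded 1, against 7.01% of all pairs, and neither FGFR1, MCC, CDX2 nor TEAD1 was among them. Above 1 were FOXN3 at 2.96 and METTL8 at 2.35, and below 1 were AUTS2 (a site 10.0 kb from its TSS) at 0.581, PCDHAC2 at 0.468 and ADAMTS16 at 0.395, named here after their values were seen. Per bp the ratio was 0.826 at FGFR1 (0.546 to 1.26), 0.905 at CDX2 (0.690 to 1.18) and 1.26 at TEAD1 (0.705 to 2.15). Whether the boundaries or the binding differed was not tested, since counts over fixed windows were not used here.

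**Figure D4:**
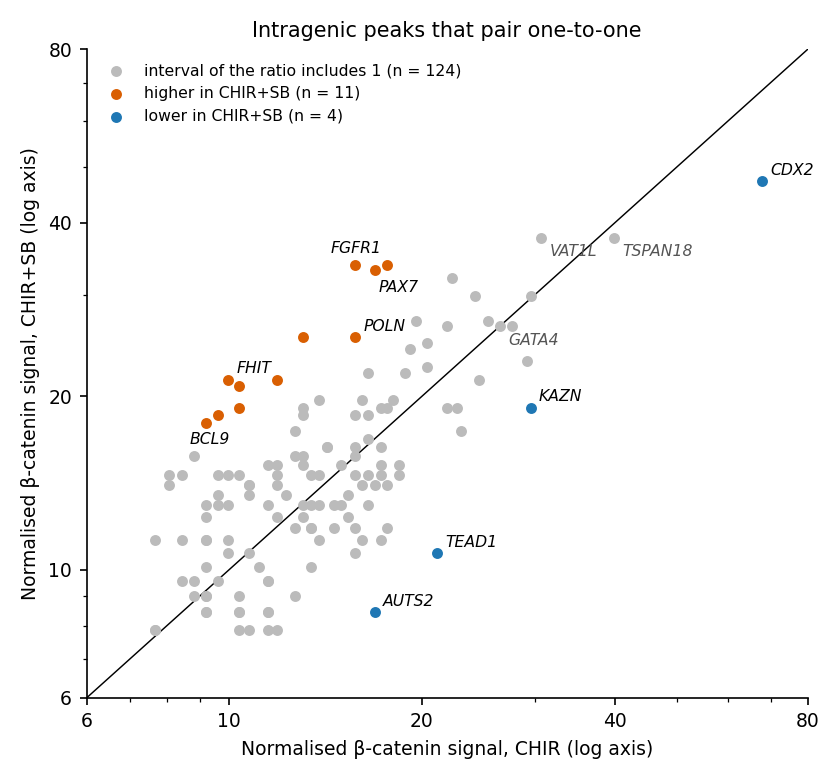
Normalised β-catenin signal in CHIR (x axis, log scale) and CHIR+SB (y axis, log scale) at the 139 intragenic pairs, each point 1 pair, with the line of equal signal. Orange marks the 11 pairs and blue the 4 pairs whose exact 95% interval of the ratio excludes 1, all of which also differ in width in the same direction.

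Peaks of 1 list that met no peak of the other inhibitor list were of lower signal. In CHIR the highest were in HYDIN, with 49 reads and 9 in IgG, and in RBFOX1, a splicing factor, with 48 and 8. The caution given above about copies of HYDIN applies to this peak too. NAV2, a neuron navigator, and NR6A1, an orphan nuclear receptor that represses pluripotency genes, held 44 reads each with 4 in IgG. HES7, a transcriptional repressor of the segmentation clock, held 42, and DNMT1, the maintenance DNA methyltransferase, and SLC6A11 held 41 each. FZD10, a Frizzled receptor for Wnt ligands, held 40 reads at chr12:130649323-130649809, 2.56 kb from its TSS. LINC02026 with 39 reads and PPM1H, a phosphatase, with 38 completed the 10.

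In CHIR+SB the highest without a CHIR peak were in LINC00261, a long noncoding RNA beside FOXA2, with 42 reads and 10 in IgG, and in DUSP10, a MAP kinase phosphatase, with 41 and 7. SMYD2, a lysine methyltransferase, held 37 reads with 4 in IgG, and FLT3, a receptor tyrosine kinase of blood progenitors, 36 with 2. RP9P held 34 and REV3L, a DNA polymerase subunit, 28. ABCB5, GNAQ, KCNMA1 and RAD51B held 27 each. The signal of LINC00261 was 6.00 times IgG (2.96 to 13.4), and that of DUSP10 8.37 times (3.72 to 22.1). These 4 highest are the 4 CHIR+SB peaks at a signal of 20 or more that met no CHIR peak.

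By gene, the members fell in 38 genes for RPMI, 207 for CHIR and 459 for CHIR+SB. Both inhibitor lists had intragenic peaks in 137 genes, which is 66.2% of the CHIR genes and 29.8% of the CHIR+SB genes. In 128 of these the lists shared a site, and in 9 they did not. The 9 were ABCB5, GRIN2A, GSC, HYDIN (with the same caution), KLF12, LINC00261, LRRC4C, RBFOX1 and UNC5D. In GSC, a homeobox transcription factor of the primitive streak, the CHIR peak (26 reads) and the CHIR+SB peak (14 reads) had centres 0.244 kb apart, and in ABCB5 0.703 kb apart. In LINC00261 the centres lay 7.75 kb apart, in RBFOX1 519 kb and in LRRC4C 1072 kb.

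No gene held more than 1 intragenic peak in RPMI, while 23 did in CHIR and 42 in CHIR+SB. At least 3 peaks were held by 4 genes in CHIR and 8 in CHIR+SB. MYO3B, a class III myosin, had 5 in each inhibitor list, with all 5 sites shared. From the TSS inward its CHIR peaks held 42, 27, 57, 40 and 41 reads and its CHIR+SB peaks 20, 15, 34, 22 and 28. AUTS2 and CSMD1 had 3 shared sites each. PAPPA, a protease of insulin-like growth factor binding proteins, had 2 sites in CHIR and 4 in CHIR+SB, and FHIT also 2 and 4. TEAD1 had 1 in CHIR and 4 in CHIR+SB. The 3 TEAD1 peaks in CHIR+SB alone held 21, 18 and 15 reads, against 19 at the shared site. PLAGL1 had 3 peaks in CHIR and 2 in CHIR+SB, VAT1L 2 and 3 and ZFHX3 1 and 3. Peaks in 1 gene share their host and are not independent, and neighbouring peaks may be parts of 1 bound region. Of 29 gaps between neighbouring CHIR peaks of 1 gene, 14 were within 10 kb, and of 55 in CHIR+SB 15 were.

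**Figure D5:**
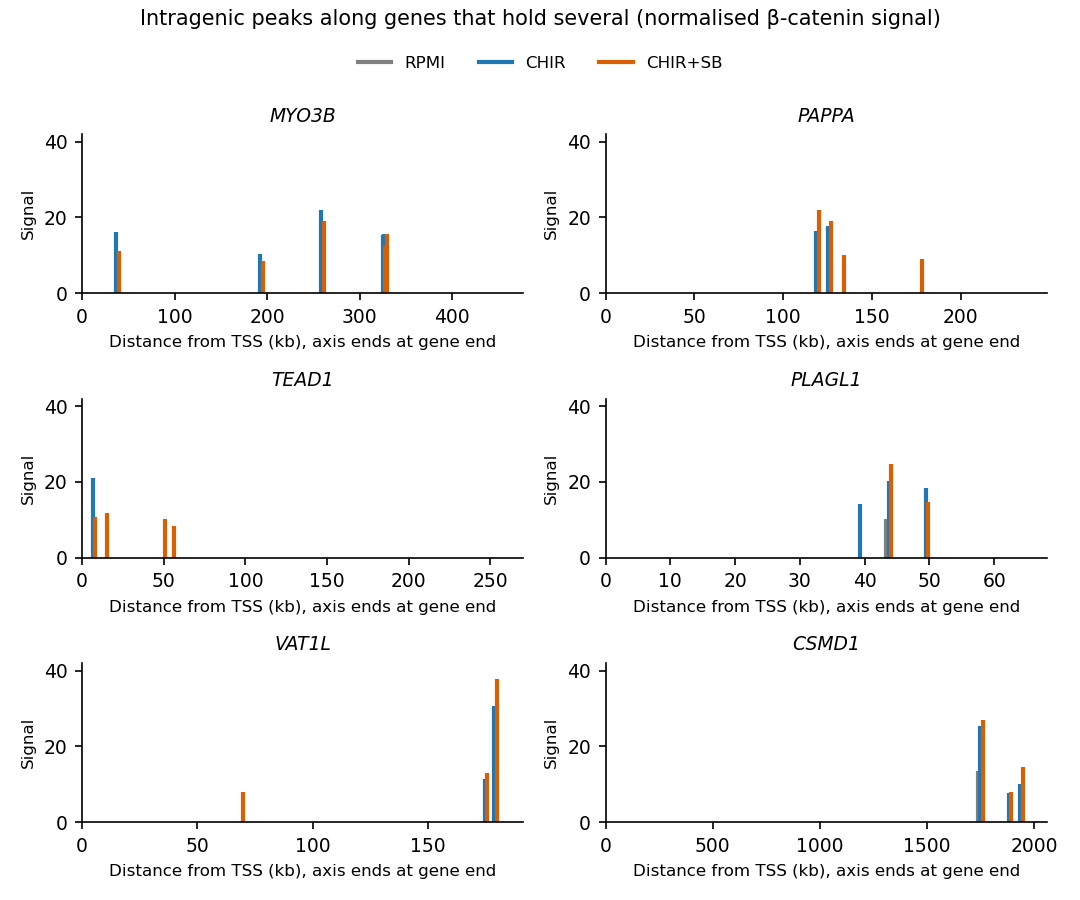
Normalised β-catenin signal (y axis) of each intragenic peak by its distance from the TSS (x axis, kb, ending at the gene's end) in 6 genes with several peaks. Lines of different conditions are set slightly apart so that shared sites can be seen. MYO3B has 5 CHIR and 5 CHIR+SB peaks at shared sites, 2 of them too close to resolve at this scale, and TEAD1 has 1 CHIR peak and 4 CHIR+SB peaks.

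Host genes that also had a peak at their own start in the same list were counted. In RPMI this was 1 gene, STXBP4. In CHIR it was 7 of 207 genes (3.38%), among them AXIN2, the negative feedback gene of Wnt signalling, and EVX1, a homeobox transcription factor of the primitive streak. In CHIR+SB it was 3 of 459 genes (0.654%): LINC00261, LOC100131496 and YAP1, the transcriptional coactivator of the Hippo pathway. The lists held 143, 280 and 262 promoter peaks in RPMI, CHIR and CHIR+SB, and the share of all genes with one was not computed. These counts are therefore not read as low or high.

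Host genes were then set against 12 lists of genes by pathway or cell type, 335 genes in all. The RPMI list had intragenic peaks in 3 of them, the CHIR list in 26 and the CHIR+SB list in 35. Of 20056 protein-coding genes, 0.165% hosted an intragenic peak of RPMI, 0.932% one of CHIR and 2.11% one of CHIR+SB. Gene length, which gives long genes more room for such peaks, was not accounted for. The gene lists were not drawn at random but chosen with earlier results of these data known. A larger share in them than among all protein-coding genes is therefore not a result.

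Of 50 Wnt pathway genes and targets, 1 hosted an intragenic peak of RPMI, 6 of CHIR and 5 of CHIR+SB, and 3 genes were in both inhibitor lists. WNT3, the Wnt ligand of the primitive streak, held 45 reads in CHIR and 27 in CHIR+SB at a shared site 46.2 kb from its TSS, with 3 and 12 IgG reads. ROR1, a receptor for WNT5A, held 38 and 21 reads at a shared site and 14 reads at another site in CHIR+SB. BCL9 was the third, with the reads given above. The gene list does not hold every Wnt gene. WNT10B, a Wnt ligand outside it, held 45 and 29 reads at a shared site and is named here after its values were seen. In CHIR alone were FZD10, with the 40 reads given above, ROR2, a receptor related to ROR1, with 32 reads, and AXIN2, with 26 reads 1.22 kb from its TSS. In CHIR+SB alone were RNF43, a ubiquitin ligase that removes Frizzled receptors, with 22 reads, and LRP6, the Wnt coreceptor, with 14.

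Of 33 genes of the primitive streak and mesendoderm, 0 hosted an intragenic peak of RPMI, 6 of CHIR and 5 of CHIR+SB. CDX2, GATA4 and GSC had one in both inhibitor lists. EVX1 with 25 reads, TBX3, a T-box transcription factor, with 24 and EOMES, the T-box factor of mesendoderm, with 23 had one in CHIR alone. FGF8 with 29 reads and HHEX, a homeobox factor of anterior endoderm, with 15 had one in CHIR+SB alone, although the FGF8 peak met a CHIR promoter peak. The CHIR peaks of EVX1, TBX3 and EOMES lay within 5 reads of the smallest count in that list.

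Of 21 genes of FGF signalling and its feedback, 3 had an intragenic peak in CHIR and 2 in CHIR+SB. DUSP6, a phosphatase that acts on ERK, held 24 and 22 reads at a shared site 2.02 kb from its TSS, and FGFR1 held the 41 and 60 reads given above. FGFR2 held 20 reads in CHIR alone. Of 25 neurectoderm genes, 3 had one in each inhibitor list. PAX7 and ZEB2, a repressor in early neural cells, were in both, EMX2, a homeobox factor of the forebrain, was in CHIR alone with 29 reads, and PAX3 was in CHIR+SB alone with 14.

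Of 13 Hippo genes, 1 had an intragenic peak in CHIR and 4 in CHIR+SB. TEAD1 was in both, and YAP1 (16 reads), TEAD4 (14 reads) and AMOTL1 (14 reads) were in CHIR+SB alone, each within 4 reads of the smallest count in that list. Of 42 adhesion and axon guidance genes, many of them long, 2 hosted one of RPMI, 4 of CHIR and 7 of CHIR+SB. NRXN3, a presynaptic adhesion protein, had the highest, with 53 reads in CHIR and 40 in CHIR+SB at a shared site 1651 kb from its TSS. CDH2, the gene of N-cadherin, held 17 reads in RPMI alone.

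Of 30 chromatin regulators, 2 had an intragenic peak in CHIR and 4 in CHIR+SB, with ARID1A, a subunit of SWI/SNF complexes, in both at 20 and 14 reads. Of 26 pluripotency genes, 0 had one in CHIR and 2 in CHIR+SB, L1TD1 with 20 reads and JARID2 with 15. Of 25 Nodal and SMAD genes, SMAD2, the signal transducer of activin and Nodal, was the only one in CHIR+SB, with 17 reads, and 0 had one in RPMI or CHIR. Of 26 genes of differentiated cells, PDX1, a pancreatic homeobox factor, had one in both inhibitor lists, with 24 and 23 reads, and SYT1 and COL2A1 in CHIR+SB alone. No intragenic peak of any list fell in the 19 BMP genes or in the 26 housekeeping genes. Promoter peaks were assigned to 5 of the 26 housekeeping genes in each list, but members of that list had been chosen for their promoter peaks in these data.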

How the data were processed

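The authors deposited 1 peak list per β-catenin library with, per the file headers, counts of β-catenin and IgG reads, normalised signal and the assigned gene with its TSS. Counts as deposited are whole numbers of reads. Deposited signal is the count times 1 factor per library, and the deposited ratio to IgG holds 10000 where no IgG read was counted, which was kept in medians. Bowtie and the builds hg19 and mm9 are named per the submitters' processing notes. Not given in the sources used here were the peak caller, its thresholds, the total depth and the Bowtie version. Coordinates are those of the lists and were taken as hg19, the human build named.

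Peaks were sorted into classes by the authors' position and distance columns, with python 3.11.15, pandas 2.3.3 and scipy 1.17.1. Overlap meant at least 1 bp. Ratios used one-to-one pairs, with exact 95% conditional binomial intervals from the read counts of both libraries. Doses are left out, since their unit in the labels is in doubt. With 1 library per condition no p-value is given. Named genes are the 10 highest peaks per list, sites in all lists, pairs whose interval excluded 1, the 10 highest peaks without a partner, genes with most peaks, members near 1000 bp and members of the gene lists. The members and lists were chosen with earlier results of these data known. Symbols follow RefSeq (GRCh38 table, names only). Exons, introns and peak sequences were not analysed here.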

Additional observations from a re-analysis of the deposited data

How the results depend on the processing

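With the 260 highest peaks of each list, 37 CHIR and 50 CHIR+SB peaks were intragenic (14.2% and 19.2%), and overlap was 10.5% for RPMI in CHIR, 70.3% for CHIR in CHIR+SB and 52% for CHIR+SB in CHIR. With a common minimum signal, CHIR+SB had 221 intragenic peaks (25.3%) in 201 genes, a median distance of 37.3 kb, a width of 426 bp and 46.6% overlap with CHIR, the CHIR width was 438.5 bp, and 15 (CHIR) and 20 (CHIR+SB) genes of the gene lists had a peak. With signal at least 4 times IgG, 25, 157 and 310 intragenic peaks were left in RPMI, CHIR and CHIR+SB. Counting only peaks over 5 kb from the TSS gave 17.9% in CHIR and 24.5% in CHIR+SB, and 16 genes of the gene lists in CHIR. Adding 1 read to each count gave medians over IgG of 3.72, 3.81 and 3.86. Subtracting IgG gave a median ratio of CHIR+SB over CHIR of 0.991.

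Per bp of peak width, 5 pairs of CHIR+SB over CHIR excluded 1, 2 of them higher, and the median ratios to RPMI were 0.836 for CHIR and 0.750 for CHIR+SB, with 1 and 0 pairs excluding 1. The ratio changed direction per bp at the innermost AUTS2 site (1.28), TEAD1 (1.26), URM1 (0.655), PCDHAC2 (0.468), MCC (0.777), EFNA5 (0.573), BCL9 (0.728) and FGFR1 (0.826). With all pairs centred on a ratio of 1, 0 pairs of CHIR over RPMI excluded 1. Fewer peaks enter at the stricter limits, and the cause of the other changes was not tested. The other 73 recomputed summary values lay within 1.5 times the reported count or within the 95% interval of the reported value. No paired analysis was possible because each condition has 1 library per antibody. Of the RPMI intragenic peaks 71.1% lie within 2 reads of the smallest count, so few reads stand behind each RPMI value.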

Other observations

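The highest intragenic site, in CDX2, has neighbours on chromosome 13 that are also members. PDX1, on one side, held 24 reads in CHIR at chr13:28498978-28499230 and 23 in CHIR+SB, and FLT3, on the other side, held 36 reads in CHIR+SB alone at chr13:28624266-28624845. From the first of these peaks to the last is 125.9 kb, with 5 intragenic peaks in 3 genes and 0 from RPMI. Normalised signal over IgG was 6.53 at the PDX1 peak in CHIR and 3.29 in CHIR+SB, and 25.7 at the FLT3 peak, which rests on 2 IgG reads. These genes were picked after their values were seen.

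The centres of 2 CHIR+SB members also lay inside another gene named in the lists. Genes that the lists do not name were not checked, so 2 is a lower limit. These were a peak of 14 reads assigned to LOC100130452 and lying inside CCDC150, and a peak of 17 reads assigned to MGST2 and lying inside MAML3, a coactivator of Notch signalling. Of 548 host genes, 10 were given more than 1 start by the authors across their peaks.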
